A study of Homo sapiens with 6 samples.

Results

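The genes described here encode 10 growth factor ligands for receptor tyrosine kinases, HBEGF, AREG, EREG, TGFA, NRG1, PDGFA, PDGFB, PDGFC, FGF2 and CSF1. They were chosen by symbol, with earlier results of these data known. Each symbol matched 1 Ensembl gene ID, and together they are 10 of the 58051 rows of the deposited count table. The libraries come from A375, a widely used human melanoma cell line with an activating BRAF mutation. In the TGFB1 group, 3 libraries, cells were starved for 2 h and then received 10 ng/mL recombinant human TGFB1 for 2 h. In the Vehicle group, 3 libraries, cells were starved for 2 h and then received 4 mM HCl with 1 mg/mL BSA for 2 h. Both groups thus share the line and the starvation. No HCl or BSA is given for the TGFB1 group, so whether the groups also share the carrier is not known. The design text describes the replicates as technical. Each p-value and interval thus measures the spread between these libraries and not that between independent experiments.

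These ligands bind receptors on the cell surface that pair up and phosphorylate each other, which starts signalling through the RAS/ERK and PI3K pathways. TGFA, HBEGF, AREG and EREG are made as membrane-anchored precursors, are shed by proteases and bind EGFR, while NRG1 binds ERBB3 and ERBB4. PDGFA, PDGFB and PDGFC bind the PDGF receptors, FGF2 binds FGF receptors and CSF1 binds CSF1R, the receptor of macrophages. In melanoma FGF2 and TGFA are known as growth factors that the tumour cells themselves make.

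Library totals ran from 32458753 to 34895075 counts in the TGFB1 group and from 24713894 to 34374668 in the Vehicle group. SMAD7, an early target of the TGF-beta pathway, had 57.1 to 63.6 CPM (counts scaled to the library total, with the TMM correction for library composition) with TGFB1 and 7.81 to 11.2 CPM with Vehicle. Of 8 melanocyte markers, 3 had a mean above 1 CPM (MITF, DCT and S100B), while SOX10 was listed at 0 in all 6 libraries. Their summed level was 111 to 117 CPM with TGFB1 and 121 to 137 CPM with Vehicle, and 1 of the 6 tested, MITF, was lower with TGFB1 (log2 fold change -0.23; adjusted p = 0.0355, edgeR). Of the SOX10 exons, 2.4% lie under exons of POLR2F on the other strand. Whether the 0 of SOX10 reflects absent RNA or the way reads were counted was not tested. Among markers of other cells, the 4 leukocyte genes summed to 0.0614 to 0.231 CPM with TGFB1 and 0.164 to 0.402 CPM with Vehicle, and the 3 endothelial genes to 0.584 to 0.974 CPM with TGFB1 and 0.368 to 1.02 CPM with Vehicle. The 4 fibroblast genes summed to 8.65 to 10.7 CPM with TGFB1 and 11.5 to 13.1 CPM with Vehicle, and the 4 keratinocyte genes to 65.9 to 69.5 CPM with TGFB1 and 51.2 to 69.3 CPM with Vehicle. Nearly all of the keratinocyte sum came from KRT10 (mean 51.0 CPM with TGFB1 and 44.5 CPM with Vehicle) and KRT14 (16.5 and 14.5 CPM). KRT5 (0.131 and 0.259 CPM) and KRT1 (0 and 0.0136 CPM) were near the floor. The part of these marker differences between the groups in the ligand results was not tested. In bulk RNA, fewer cells that express a gene and less of its RNA per cell cannot be told apart. Along the principal component with the most variance (28.9%), the TGFB1 libraries lay at 17.7 to 20.7 and the Vehicle libraries at -37.1, -13.4 and -8.25, with Vehicle replicate 1 the farthest out.

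PDGFA and TGFA rose and AREG fell with TGFB1, and the other 7 ligand genes did not pass the test. PDGFA changed most, 3.49-fold higher, followed by AREG at 0.532 times its Vehicle level and TGFA at 1.21 times. All 10 members passed the filter on low counts. The threshold was an adjusted p of 0.05 in edgeR's quasi-likelihood test, with Benjamini-Hochberg adjustment over all 16690 genes tested. The 3 calls among 10 members stand beside a background of 3.31% of the tested genes called, 2.43% of the tested genes being higher and 0.887% lower. That background was 2.11% without TGFB1 replicate 1 and 5.37% without Vehicle replicate 3, the lowest and highest values with 1 library left out. For 3 of the 10 members, the same 3 that were called, all libraries of one group lay apart from all libraries of the other. This held for 16.4% of the tested genes, called or not. The calls and this separation come from the same libraries, so the separation adds no support to the calls. The median log2 fold change of the 10 was 0.21, beside -0.0067 over all genes tested. The members, and the other lists below, were chosen with earlier results of these data known. Their shares of called genes and this median are therefore descriptions and no test of these gene families. The 3 calls held under each of the 12 alternative fits run.

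PDGFA encodes the A chain of platelet-derived growth factor, a mitogen for fibroblasts and other mesenchymal cells. The gene lies on the minus strand at chr7:497258-520296 (GENCODE 29, GRCh38). Its level was 23.1, 23.8 and 25.1 CPM in TGFB1 replicates 1, 2 and 3, against 6.91, 6.83 and 6.87 CPM in Vehicle replicates 1, 2 and 3. Every TGFB1 library was thus above every Vehicle library by a wide margin. On the log2 scale the difference was 1.80 ± 0.11 (SE), with a 95% interval from 1.59 to 2.02 and an adjusted p = 1.02e-14 (edgeR quasi-likelihood test). By size it ranked 38th of the 405 genes called higher, whose median log2 fold change was 0.51. The counts behind these values ran from 758 to 825 with TGFB1 and from 169 to 239 with Vehicle. The 3 Vehicle values lay closer together (a coefficient of variation of 0.585%) than counting error alone would give on average (6.98%), and the fitted SE, which borrows the spread of other genes, does not rest on them alone.

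The 250 bases before the outermost RefSeq start of PDGFA are shown because this gene had the largest change among the members (RefSeq, GRCh38.p14, minus strand, chr7:520701-520950). Capitals mark matches to GGCGC, a GC-rich motif that SMAD proteins can bind, and to the SMAD element CAGAC, which reads GTCTG where it lies on the other strand. This start lies upstream of every GENCODE 29 exon of the gene, with no GENCODE 29 start within 50 bases of it.
PDGFA: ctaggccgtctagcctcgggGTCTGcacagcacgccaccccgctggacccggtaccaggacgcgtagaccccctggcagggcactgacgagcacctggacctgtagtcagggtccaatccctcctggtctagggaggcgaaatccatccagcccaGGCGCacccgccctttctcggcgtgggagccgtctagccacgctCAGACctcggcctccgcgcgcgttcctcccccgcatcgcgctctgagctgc
Motifs were searched on both strands in the 250 bases before each RefSeq start. GGCGC was found in 44.5% of 35114 such promoter windows. The SMAD element CAGAC was found in 38% of them. The TATA box letters TATAAA were found in 10.7%. The AP-1 letters TGAGTCA were found in 4.2%. The CRE letters TGACGTCA, a motif added after the sequences were seen, were found in 1.65%. RefSeq lists 4 starts for PDGFA, and the window of each held GGCGC, at 1 to 7 positions. CAGAC was found, at 2 positions, in the window printed and in none of the other 3. Of the 4 starts, that at chr7:520226 alone has a GENCODE 29 start within 50 bases. Its window, not printed, held GGCGC at 4 positions and no CAGAC. Of the members with a window that did not pass, HBEGF held GGCGC at 6 positions, FGF2 at 3 and EREG at 0. Each RefSeq window of TGFA held it at 4 positions. A match is a run of letters and no evidence of binding.

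TGFA encodes transforming growth factor alpha, an EGFR ligand, and was the most abundant of the 10 by far. The gene lies on the minus strand at chr2:70447280-70554193. It stood at 307, 293 and 291 CPM in TGFB1 replicates 1, 2 and 3, against 255, 242 and 239 CPM in Vehicle replicates 1, 2 and 3. The groups did not overlap, and the lowest TGFB1 library was above the highest Vehicle library, Vehicle replicate 1. This gave a log2 fold change of 0.28 (SE 0.05; 95% interval from 0.18 to 0.38; adjusted p = 0.000226, edgeR quasi-likelihood test). This is a small change, 348th by size of the 405 genes called higher, resolved by 6231 to 10143 counts per library.

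AREG encodes amphiregulin, an EGFR ligand of lower affinity than TGFA. It lies on the plus strand at chr4:74445134-74455009. Its level was 3.32, 2.89 and 2.70 CPM in TGFB1 replicates 1, 2 and 3, against 6.18, 5.68 and 4.94 CPM in Vehicle replicates 1, 2 and 3. All TGFB1 libraries were below all Vehicle libraries. This gave a log2 fold change of -0.91 (SE 0.18; 95% interval from -1.28 to -0.54; adjusted p = 0.00143, edgeR quasi-likelihood test), 17th by size of the 148 genes called lower. The counts ran from 88 to 109 with TGFB1 and from 151 to 173 with Vehicle.

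EREG encodes epiregulin, which binds EGFR and ERBB4, and lies 56383 bases from AREG on the same strand, at chr4:74365143-74388751. Its level was 0.244, 0.173 and 0.491 CPM in TGFB1 replicates 1, 2 and 3, against 0.286, 0.427 and 0.603 CPM in Vehicle replicates 1, 2 and 3. The groups overlapped, on 6 to 21 counts per library. The log2 fold change was -0.56 with a 95% interval from -1.77 to 0.65 (adjusted p = 0.797, edgeR quasi-likelihood test), which holds both a fall as large as that of AREG and no change. The EREG value was -1.08 without TGFB1 replicate 3, -0.27 without TGFB1 replicate 2 and -0.25 without Vehicle replicate 3. The sequences upstream of these neighbouring genes are shown side by side because AREG fell while EREG, with few counts, was not resolved. Every motif match is in capitals (RefSeq, GRCh38.p14, plus strand, AREG at chr4:74444886-74445133 and EREG at chr4:74364895-74365142).
AREG: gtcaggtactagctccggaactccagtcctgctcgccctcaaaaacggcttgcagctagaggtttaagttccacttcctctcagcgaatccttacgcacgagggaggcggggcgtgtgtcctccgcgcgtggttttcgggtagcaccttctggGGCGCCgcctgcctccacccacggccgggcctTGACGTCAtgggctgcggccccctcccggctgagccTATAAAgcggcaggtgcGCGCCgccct
EREG: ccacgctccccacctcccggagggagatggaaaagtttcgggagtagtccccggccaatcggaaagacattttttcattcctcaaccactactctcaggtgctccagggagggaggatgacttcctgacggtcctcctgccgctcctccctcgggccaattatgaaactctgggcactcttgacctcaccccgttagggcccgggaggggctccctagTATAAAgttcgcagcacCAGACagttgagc
Both windows held TATAAA, beginning 29 bases before the start of AREG and 32 bases before that of EREG. TGACGTCA, the element bound by CREB proteins, stood 65 bases before the start of AREG and was not found in the EREG window. This motif was added after the sequences were seen, and 1.65% of all promoter windows held it, so the contrast is a description only. GGCGC was found at 3 positions in the AREG window, of which 2 overlap as GGCGCC, and CAGAC at 1 position in the EREG window, 15 bases before the start. TGAGTCA was in neither.

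**Figure D1:**
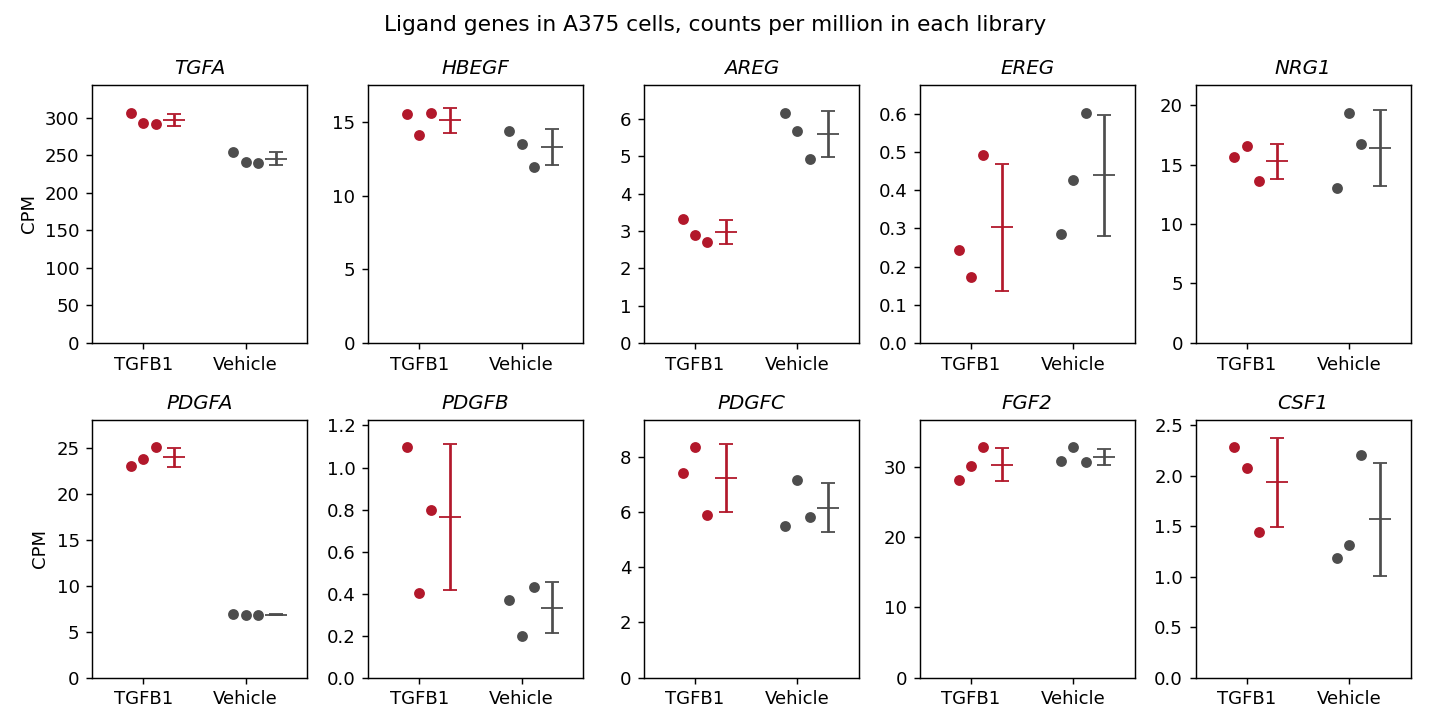
CPM (scaled counts) of each ligand gene, on linear axes from 0 with a scale of their own. Points are single libraries, 3 per group, and the bar beside them is the mean ± SD. The groups separate for TGFA, AREG and PDGFA and overlap for the other 7 genes.

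The other ErbB ligands among the members did not pass. HBEGF, which encodes the heparin-binding EGF-like factor and is also the diphtheria toxin receptor, stood at 15.6, 14.1 and 15.6 CPM in TGFB1 replicates 1, 2 and 3, against 14.4, 13.5 and 11.95 CPM in Vehicle replicates 1, 2 and 3. TGFB1 replicate 2 lay below Vehicle replicate 1, so the groups overlapped. The log2 fold change of HBEGF was 0.19 (adjusted p = 0.516, edgeR quasi-likelihood test). Its 95% interval ran from -0.03 to 0.41, with an upper end at a 1.33-fold rise. Without Vehicle replicate 3 the HBEGF value was 0.12. NRG1, which encodes neuregulin, was at 15.6, 16.6 and 13.7 CPM with TGFB1 and 13.1, 19.4 and 16.7 CPM with Vehicle. The lowest and the highest NRG1 values were both in Vehicle libraries, and the log2 fold change was -0.11 (95% interval from -0.35 to 0.14; adjusted p = 0.81, edgeR quasi-likelihood test). Without Vehicle replicate 2, the highest NRG1 library, the sign turned, to 0.032.

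The other PDGF genes among the members, PDGFB and PDGFC, had lower mean levels per length than PDGFA in both groups and wider intervals. PDGFB, the B chain gene, had 1.10, 0.404 and 0.799 CPM in TGFB1 replicates 1, 2 and 3, against 0.368, 0.197 and 0.431 CPM in Vehicle replicates 1, 2 and 3. TGFB1 replicate 2 lay within the Vehicle values. Its log2 fold change, 1.19 ± 0.53 (SE), rested on 6 to 36 counts per library. The interval for that gene alone ran from 0.11 to 2.27 (unadjusted p = 0.0322), and over all genes tested it did not pass (adjusted p = 0.333, edgeR quasi-likelihood test). PDGFC, whose product has to be cut by a protease such as tPA before it is active, had 7.43, 8.35 and 5.90 CPM with TGFB1 and 5.48, 7.16 and 5.83 CPM with Vehicle. The PDGFC groups overlapped, with a log2 fold change of 0.23 (95% interval from -0.09 to 0.55; adjusted p = 0.622, edgeR quasi-likelihood test). The PDGFC value was 0.11 without TGFB1 replicate 2, 0.36 without TGFB1 replicate 3 and 0.35 without Vehicle replicate 2.

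FGF2 encodes basic fibroblast growth factor, which leaves cells without a classical signal peptide. It stood at 28.1, 30.0 and 32.7 CPM in TGFB1 replicates 1, 2 and 3, against 30.8, 32.8 and 30.6 CPM in Vehicle replicates 1, 2 and 3. The groups overlapped, with 2 of the 3 TGFB1 libraries below every Vehicle library, and the 95% interval of the log2 fold change, from -0.22 to 0.11 around -0.05, was the narrowest of the 7 genes that did not pass (adjusted p = 0.88, edgeR quasi-likelihood test). For the spread between these libraries, that interval ends at 0.86 times and 1.08 times the Vehicle level. Of the FGF2 exons, 11.9% lie under exons of NUDT6 on the other strand, so its counts may be incomplete or shared there. CSF1, the macrophage colony-stimulating factor gene, had 2.28, 2.08 and 1.44 CPM with TGFB1 and 1.19, 1.31 and 2.21 CPM with Vehicle. In CSF1, Vehicle replicate 3 lay above 2 of the 3 TGFB1 libraries, and the log2 fold change was 0.28 (95% interval from -0.32 to 0.89; adjusted p = 0.792, edgeR quasi-likelihood test). Without Vehicle replicate 3 the value for CSF1 was 0.63, also not past the threshold (adjusted p = 0.355, edgeR), and without Vehicle replicate 1 it was 0.13.

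**Figure D2:**
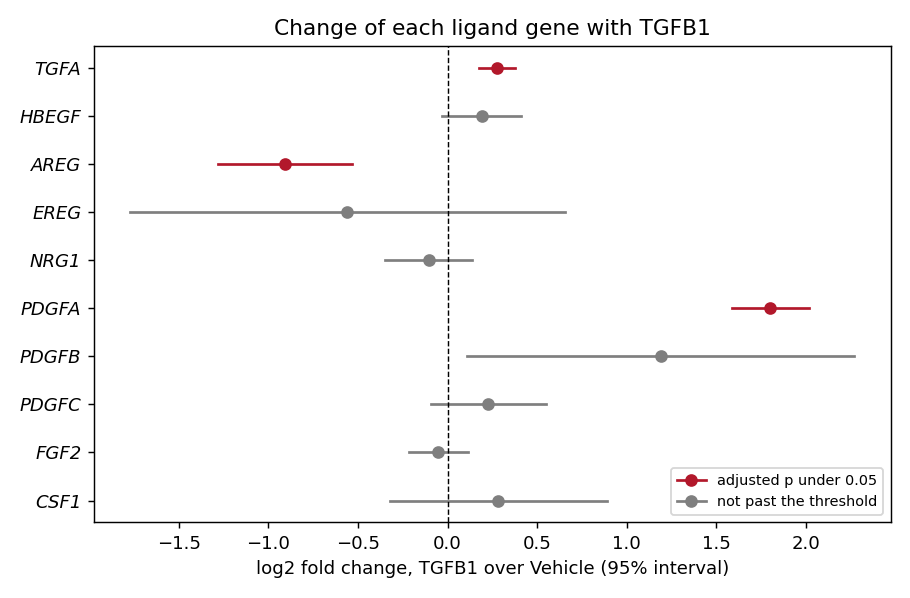
Log2 fold change of each ligand gene, TGFB1 over Vehicle, with its 95% interval for that gene alone. Red marks the 3 genes with an adjusted p under 0.05. PDGFA lies at 1.80, TGFA at 0.28 and AREG at -0.91, and the intervals of EREG and PDGFB are the widest.

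The precision differed widely among the members. Within the TGFB1 group the coefficient of variation ran from 2.9% for TGFA to 55.2% for EREG, and within the Vehicle group from 0.585% for PDGFA to 36.4% for PDGFB. Counting error alone would give 1.01% for TGFA and 31.6% for EREG in the TGFB1 group. NRG1 varied more among Vehicle libraries (19.4%) than counting error would give (4.49%).

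Levels were compared between genes per length, as CPM per kb of the union of GENCODE 29 exons. In TGFB1 libraries the order by mean was TGFA (59.8 CPM per kb), PDGFA (5.78), HBEGF (5.01), FGF2 (4.47), AREG (1.80), NRG1 (1.35), PDGFC (1.29), CSF1 (0.357), PDGFB (0.204) and EREG (0.053). In Vehicle libraries the order was TGFA (49.4 CPM per kb), FGF2 (4.64), HBEGF (4.40), AREG (3.40), PDGFA (1.66), NRG1 (1.45), PDGFC (1.10), CSF1 (0.29), PDGFB (0.0883) and EREG (0.0768). PDGFA thus ranked 2 of 10 with TGFB1 and 5 of 10 with Vehicle, while AREG ranked 5 with TGFB1 and 4 with Vehicle. With TGFB1 the neighbours HBEGF and FGF2, NRG1 and PDGFC, and CSF1 and PDGFB overlapped in their libraries. With Vehicle the neighbours FGF2 and HBEGF, PDGFA and NRG1, NRG1 and PDGFC, and PDGFB and EREG overlapped. With the longest annotated transcript as the length, PDGFA kept rank 2 with TGFB1 (10.4 CPM per kb) and rank 5 with Vehicle (2.98), but NRG1 stood above AREG with TGFB1, and HBEGF above FGF2 with Vehicle.

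**Figure D3:**
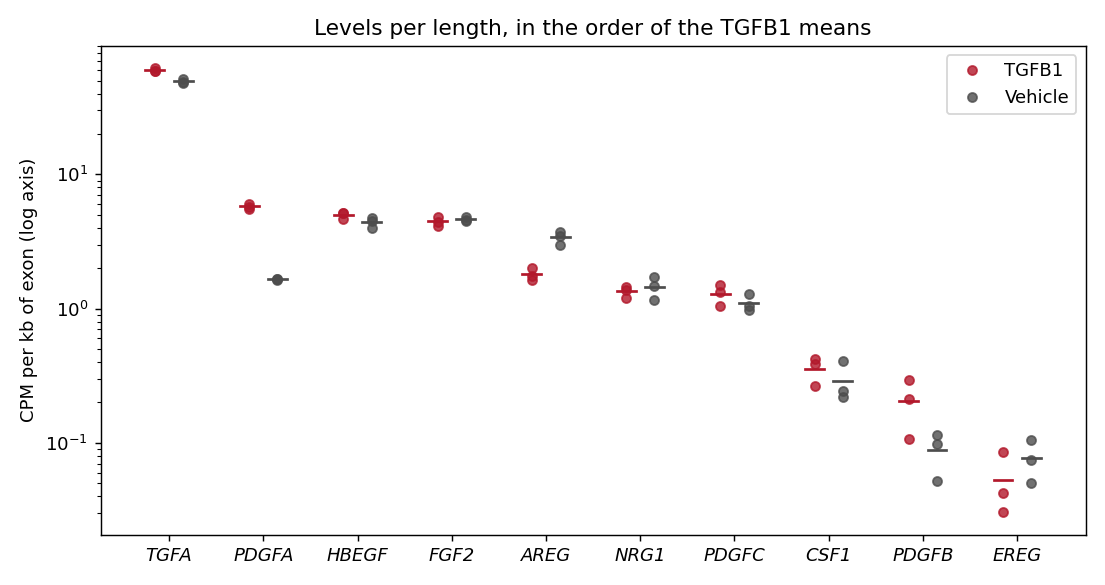
Level of each ligand gene per kb of exon on a log axis, in the order of the TGFB1 means. Points are single libraries and short lines are means over 3. TGFA lies far above the next gene in both groups, and the libraries of the groups lie apart for PDGFA, AREG and TGFA.

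Summed per length, the 5 ErbB ligand genes came to 68.1 ± 2.06 CPM per kb in TGFB1 libraries and 58.7 ± 2.19 CPM per kb in Vehicle libraries (SD, n = 3 each). TGFA made up 87.9% ± 0.197 of that sum with TGFB1 and 84.1% ± 0.787 with Vehicle (SD, n = 3 each). The share of AREG was 2.64% ± 0.203 with TGFB1 and 5.78% ± 0.441 with Vehicle, so that the fall of AREG took place in a minor part of the ErbB ligand RNA. The 3 PDGF members together with PDGFD, the remaining gene of that family, summed to 9.47 ± 0.112 CPM per kb with TGFB1 and 5.04 ± 0.316 CPM per kb with Vehicle. PDGFA made up 61.02% ± 2.44 of the PDGF sum with TGFB1 and 32.9% ± 2.16 with Vehicle. PDGFD, at a log2 fold change of -1e-04 (adjusted p = 1, edgeR quasi-likelihood test), made up 23.2% with TGFB1 and 43.5% with Vehicle. By the union of exons, PDGFA was therefore the leading PDGF gene with TGFB1 and PDGFD with Vehicle. With the longest transcript as the length PDGFA led in both groups, at 70.9% against 15.8% for PDGFD with TGFB1 and 43.5% against 33.6% with Vehicle. These shares are of RNA, and no test was made of them.

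**Figure D4:**
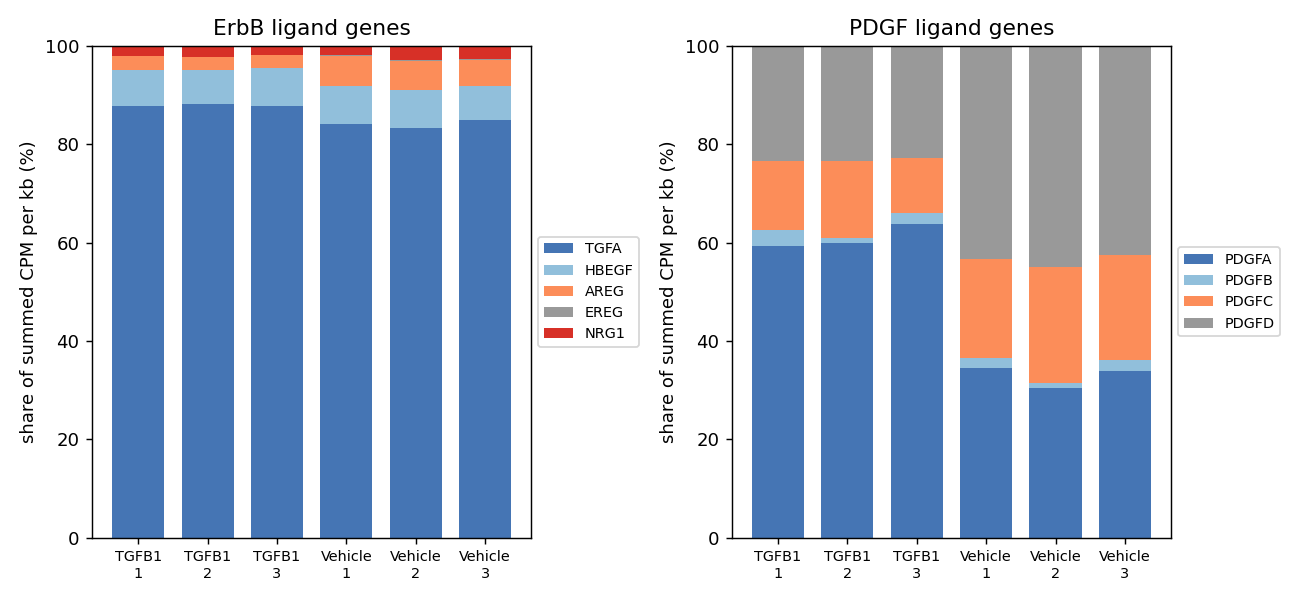
Share of each gene in the summed CPM per kb of the 5 ErbB ligand genes (left) and the 4 PDGF genes (right), in each library. TGFA holds 83.4% to 88.2% of the ErbB sum in all 6 libraries, while PDGFA holds 59.4% to 63.8% of the PDGF sum in TGFB1 libraries and 30.5% to 34.5% in Vehicle libraries.

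The receptors of these ligands did not pass the test. Of 11 receptor genes 10 were tested and 0 passed with edgeR, DESeq2 or limma-voom. Of these 10, 2 had an unadjusted p under 0.05 (edgeR), EGFR and ERBB3, beside 2048 of all 16690 genes tested. EGFR, the receptor of TGFA and AREG, was at 13.0 ± 0.527 CPM with TGFB1 and 10.3 ± 0.443 CPM with Vehicle (SD, n = 3 each), or 0.34 higher on the log2 scale (95% interval from 0.11 to 0.57; adjusted p = 0.118, edgeR). ERBB3, which has little kinase activity of its own and signals with a partner such as ERBB2, was the most abundant receptor gene, at 286 ± 10.3 CPM with TGFB1 and 266 ± 5.47 CPM with Vehicle (log2 fold change 0.10; adjusted p = 0.356, edgeR). ERBB2 was at 28.4 ± 2.77 CPM with TGFB1 and 27.3 ± 1.58 CPM with Vehicle. PDGFRA, the main receptor of the PDGFA product, was low, at 2.40 ± 0.904 CPM with TGFB1 and 3.26 ± 0.348 CPM with Vehicle (log2 fold change -0.44; adjusted p = 0.497, edgeR).

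Among 19 tested genes of ligand shedding, activation and co-receptors, 1 rose and 0 fell (5.26% called, beside 3.31% of all tested genes). The riser was FURIN, a protease that cleaves the precursors of PDGFA and many other secreted proteins, at 70.0 ± 6.80 CPM with TGFB1 and 47.9 ± 3.53 CPM with Vehicle, or 0.55 higher on the log2 scale (SE 0.07; adjusted p = 1.73e-06, edgeR). ADAM17, the main sheddase of TGFA, AREG and HBEGF, had a log2 fold change of 0.0045 (adjusted p = 0.991, edgeR). Of 12 tested genes that control ErbB receptors after activation, 1 rose and 2 fell (25% called, beside the same 3.31%). LRIG3, a relative of the receptor-degrading LRIG1, rose by 1.33 on the log2 scale (adjusted p = 1.12e-17, edgeR). ERRFI1, whose product blocks the EGFR kinase, fell by 0.25, and SOCS5, which promotes EGFR degradation, fell by 0.28 on the log2 scale (adjusted p = 0.00189 and 0.00382, edgeR). ERRFI1 lost its call without TGFB1 replicate 3 (adjusted p = 0.0601, edgeR) and SOCS5 without TGFB1 replicate 1 (adjusted p = 0.0716, edgeR).

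Of 3 tested further ErbB ligand genes (BTC, NRG2 and NRG4) 0 passed with edgeR, DESeq2 or limma-voom, and 0 had an unadjusted p under 0.05. Of 6 tested further PDGF, FGF and CSF1-receptor ligand genes, FGF1 rose (16.7% called, beside 3.31% of all tested genes), with 8.69 ± 1.33 CPM with TGFB1 and 5.80 ± 0.884 CPM with Vehicle (log2 fold change 0.58; adjusted p = 0.0239, edgeR). FGF1 lost its call with DESeq2 (adjusted p = 0.0515) and without TGFB1 replicate 1 or 3 or Vehicle replicate 1 or 2 (adjusted p = 0.113, 0.239, 0.0641 and 0.194, edgeR). Of 22 tested ligand genes of other receptor tyrosine kinases VEGFA rose and 0 fell (4.55% called, beside the same 3.31%), with a log2 fold change of 1.05 for VEGFA (adjusted p = 7.77e-14, edgeR). PDGFA thus had the largest change of any called ligand gene among these lists. Within 250 kb of AREG, TGFA and PDGFA, 11 other genes were tested and 0 passed with edgeR, DESeq2 or limma-voom. Of these 11, 2 had an unadjusted p under 0.05 (edgeR), beside 2048 of all 16690 genes tested.

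**Figure D5:**
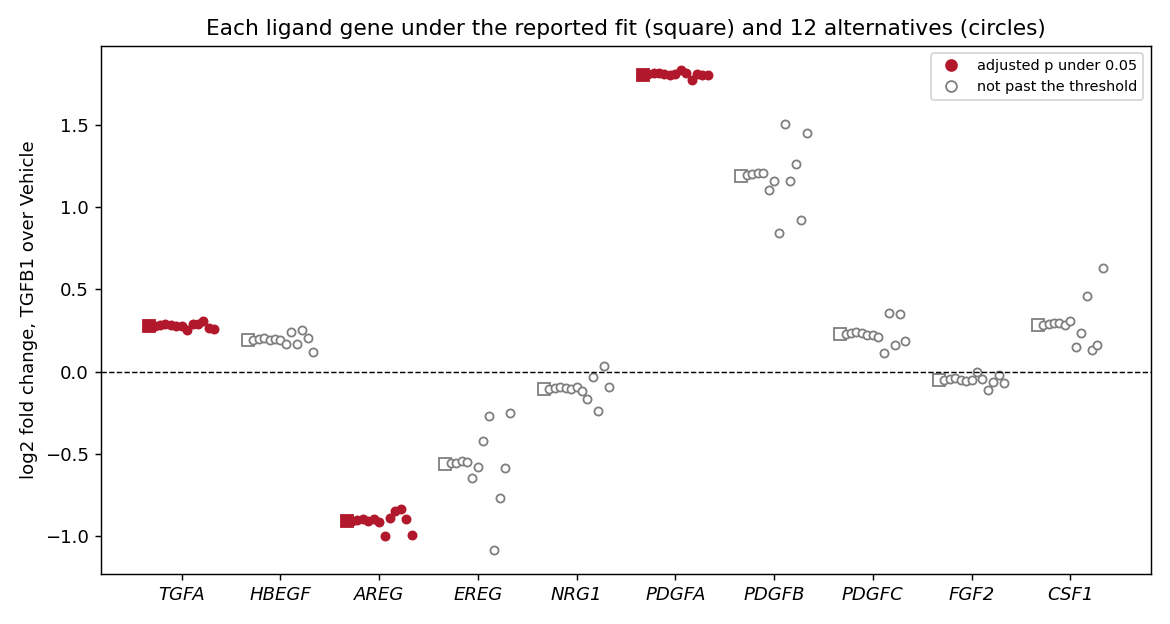
Log2 fold change of each ligand gene, TGFB1 over Vehicle, under the reported fit (square) and 12 alternatives (circles). Filled red marks an adjusted p under 0.05. PDGFA, TGFA and AREG are filled throughout, and PDGFB, EREG and CSF1 scatter most without ever being filled.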

How the data were processed

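RNA of 6 A375 libraries was sequenced after ribosomal depletion, per the labels' protocols, although the molecule is labelled polyA RNA. The authors deposited raw counts of reads for each Ensembl gene ID. Cutadapt, TopHat2 2.1, HTSeq and the build GRCh38 are named in the submitters' processing notes. How strand and ambiguous reads were counted, and with which annotation, is not stated in the labels. Symbols matched 56948 of 58051 rows. The filter was filterByExpr of edgeR with a count of at least 10 and a total of at least 15, which 16690 genes passed. Counts were scaled by TMM and tested with edgeR's quasi-likelihood test, robust, with the group as sole term (edgeR 4.0.16, limma 3.58.1, DESeq2 1.42.0, R 4.3.3). Benjamini-Hochberg adjustment ran over all tested genes, with a threshold of 0.05. The SE is the log2 fold change over the square root of F, and intervals cover 95% for 1 gene. The procedure was tested on simulated data. Replicate libraries were not copies, since the variance between them was 5.04 to 25.1 times that of counting. Same-numbered libraries did not deviate together (correlations -0.0296, 0.0418 and 0.0076). Members and lists were chosen with earlier results of these data known. The text names all members, the called genes of each other list (up to 6, or the 2 most abundant where none passed) and SMAD7. EGFR, PDGFRA, PDGFD and ADAM17 were added after their values were seen, for their link to a member.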

Additional observations from a re-analysis of the deposited data

How the results depend on the processing

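The alternatives were scaling by DESeq2's size factors or by library totals, testing without the low-count filter, DESeq2, limma-voom, a replicate block and leaving out each library in turn. Under all 12, 3 members passed, and they were AREG, TGFA and PDGFA. PDGFA ranged from 1.77 to 1.83, TGFA from 0.25 to 0.31 and AREG from -0.996 to -0.83 on the log2 scale. Among the other members, NRG1 ranged from -0.24 without Vehicle replicate 1 to 0.032 without Vehicle replicate 2, where its sign changed. EREG ranged from -1.08 (without TGFB1 replicate 3) to -0.25 (without Vehicle replicate 3), PDGFB from 0.84 to 1.501, HBEGF from 0.12 to 0.25, PDGFC from 0.11 to 0.36, CSF1 from 0.13 to 0.63 and FGF2 from -0.11 to -0.0006, none of them past the threshold. The number of genes called, 553, ranged from 365 to 923 when 1 library was left out (365 without TGFB1 replicate 1, 923 without Vehicle replicate 3), and no scaling moved the median of all genes by more than 0.0077. With the replicate number as a block it was 601. The labels do not tie the numbers to anything shared, and the deviations of same-numbered libraries were uncorrelated, so the block is given as a check only. It changed no member's call. With the longest transcript as the length, PDGFA was the leading PDGF gene in both groups (70.9% of the sum with TGFB1 and 43.5% with Vehicle). EREG (6 to 21 counts) and PDGFB (6 to 36 counts) had few counts, and their intervals hold large changes in RNA. In the TGFB1 group their coefficients of variation were 55.2% and 45.3%, where counting error alone would give 31.6% and 19.9%. In the Vehicle group they were 36.2% and 36.4%, against 27.1% and 31.6% from counting.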
